A study of Mus musculus with 6 samples.

Results

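The mouse genes named Zfp with a number, most of which encode proteins with C2H2 zinc fingers, were followed in livers of mice given iD1, which is a code name whose compound the labels do not describe, and of mice given vehicle. They were selected on their names and on their level: symbols made of Zfp and a number, without Zfp36, and a mean of at least 50 estimated counts over the 6 libraries. Of the 34866 genes in the deposited table, 372 had such a symbol, and 244 of these reached that mean and are called members here. All 244 members were also among the 13718 genes with enough counts to be tested. Among the 128 numbered Zfp genes under the mean, 11 had no count at all and 69 could be tested.

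Polyadenylated RNA was sequenced from livers of 8-week-old male C57BL/6 mice, a standard inbred strain, in 3 iD1 libraries and 3 vehicle libraries. A drug was given by intraperitoneal injection; its dose, the time to collection and its target are not stated in the labels. The vehicle mice are labelled untreated in the treatment field, although vehicle appears in the titles and in the design text. Whether each library is a separate animal is not stated, so the p-values refer to the spread among these 6 samples, which may be technical. The column number of 1 vehicle library matches no title, and it is called the unnumbered replicate.

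Proteins of this family hold tandem C2H2 fingers, short folds around a zinc ion, each of which can contact a few bases of DNA. In many of them a KRAB domain at the start of the protein binds the scaffold TRIM28, which brings in the histone methyltransferase SETDB1 and HP1 proteins, so that the bound DNA is packed into repressed chromatin. Transposable elements and imprinted regions are the best known targets of KRAB proteins. Their genes multiplied by tandem duplication and lie in clusters of near-copies on several chromosomes. Members without KRAB are more varied and include transcriptional activators, ribosome biogenesis factors and RNA-binding proteins.

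The clearest block of lower members lay at the end of chromosome 2, where 6 KRAB genes, Zfp968, Zfp965, Zfp966, Zfp970, Zfp971 and Zfp931, were all lower in iD1 livers. They do not lie side by side, as 60 other genes of the table lie between the outer members. Of these others 28 were tested, and 11 were called lower. The block was picked out after its values were seen. Its promoters are shown because they are near-copies of each other and each holds a CCAAT box on either strand (RefSeq, GRCm38.p6). The first line gives 75 bases that are identical in Zfp971 and 4 of the other members of the block. The second gives the matching stretch of Zfp931, which has 3 differences. The third gives the 300 bases from 250 before to 50 after the annotated start of Zfp971. Capitals mark the CCAAT box, written ATTGG where it lies on the other strand.

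Zfp971, chr2:178023176-178023250, plus strand: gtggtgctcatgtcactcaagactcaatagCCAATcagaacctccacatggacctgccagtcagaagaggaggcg
Zfp931, chr2:178078489-178078563, minus strand: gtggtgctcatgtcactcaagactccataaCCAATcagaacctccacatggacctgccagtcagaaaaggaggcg
Zfp971, chr2:178023034-178023333, plus strand: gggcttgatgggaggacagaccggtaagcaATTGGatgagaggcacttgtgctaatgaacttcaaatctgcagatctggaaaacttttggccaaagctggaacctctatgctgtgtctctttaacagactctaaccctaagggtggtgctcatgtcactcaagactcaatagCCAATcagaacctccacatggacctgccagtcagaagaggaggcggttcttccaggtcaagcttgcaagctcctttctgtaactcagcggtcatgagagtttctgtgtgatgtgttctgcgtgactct

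Promoters outside that block were not compared with it by identity. Zfp120 and Zfp950, which were also called lower, likewise held a CCAAT box on either strand. The next lines give the 150 bases that end 50 bases after the start of Zfp324, the member with the largest fall, and of Zfp949 and Zfp1, which rose. Capitals mark a CCAAT box on the other strand in Zfp324. In Zfp949 and Zfp1 none of the 6 motifs searched was found, so no letter is in capitals.

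Zfp324, chr7:12965738-12965887, plus strand: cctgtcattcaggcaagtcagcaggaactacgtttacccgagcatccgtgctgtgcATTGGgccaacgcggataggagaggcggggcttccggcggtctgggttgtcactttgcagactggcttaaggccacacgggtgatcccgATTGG
Zfp949, chr9:88547920-88548069, plus strand: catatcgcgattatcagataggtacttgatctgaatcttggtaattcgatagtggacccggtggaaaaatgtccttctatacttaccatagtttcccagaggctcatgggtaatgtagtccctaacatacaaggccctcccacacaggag
Zfp1, chr8:111643343-111643492, plus strand: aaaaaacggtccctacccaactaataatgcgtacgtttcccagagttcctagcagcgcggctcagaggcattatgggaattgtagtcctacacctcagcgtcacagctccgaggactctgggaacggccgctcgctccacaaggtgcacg

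Totals ran from 23515571 to 35207596 estimated counts in the iD1 libraries and from 27160894 to 37613549 in the vehicle libraries. Mitochondrially encoded genes took 8.68% to 10.3% of the counts in iD1 and 10.6% to 13.6% in vehicle libraries. Hepatocyte markers dominated every library, with a summed level of 99638 to 108319 CPM (counts scaled to the size of the library) in iD1 and 79453 to 103626 CPM in vehicle livers. Endothelial markers summed to 189 to 240 CPM in iD1 and 243 to 307 CPM in vehicle livers, with 2 of 10 called lower. Of this list Lyve1 and Pecam1 had positive log2 fold changes (1.43 and 0.26) without a call, and the rest had negative ones. Neutrophil markers summed to 4.09 to 12.2 CPM in iD1 and 1.49 to 2.26 CPM in vehicle livers, with 3 of 5 tested called higher, and Ly6g and Mpo were at 0 in the iD1 libraries. The summed Kupffer cell, stellate cell, cholangiocyte and lymphocyte markers overlapped between the groups. Single markers among them were called: the stellate cell gene Lrat was lower (log2 fold change -1.77), and of the cholangiocyte genes Krt19 was lower (-2.66) and Sox9 higher (0.85). The hepatocyte genes Apoa1 and Hnf4a were called higher (0.58 and 0.78). The part of these shares in the results on the Zfp genes was not tested, and in whole liver fewer cells of a type and less RNA per cell cannot be told apart.

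Of the 244 members, 26 were called lower and 11 higher in iD1 livers at a threshold of 0.05 on the p-value of edgeR's quasi-likelihood test, adjusted over all tested genes by the Benjamini-Hochberg method. The calls thus took 10.7% of the members down and 4.51% up, beside 8.3% of all tested genes down and 8.42% up. Among tested genes with the same mean of at least 50 counts, 8.97% were called lower and 9.73% higher. The share of members called lower was near this background, and the share called higher was under it. Scaling by library size only, which put the all-gene median at -0.20 on the log2 scale, gave 49 members lower and 5 higher. Leaving out iD1 replicate 1 gave 41 lower, and leaving out any other library gave 14 to 17 lower. The higher calls numbered 5 when iD1 replicate 3 was left out, 5 when the unnumbered vehicle library was, 6 for vehicle replicate 2 and 7 for vehicle replicate 1.

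Most members moved little. The median log2 fold change of the members, iD1 over vehicle, was -0.17, beside 0.00 for all tested genes, and 153 members had a negative and 91 a positive value. Every iD1 library was below every vehicle library in 69 members (28.3%) and above in 31 (12.7%). The same held for 18.7% and 18.5% of all tested genes. The fold changes ran from -2.20 for Zfp324 to 1.08 for Zfp612.

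The level that chose the members has a bearing on these counts. In 24 members only the vehicle mean reached 50 counts, and in 1 only the iD1 mean did. Among the other 219 members, which reached it in both groups, 19 were called lower and 11 higher, and the median log2 fold change was -0.10. Just inside the limit were Zfp619, Zfp532 and Zfp128, with means of 50.5, 50.8 and 51.3 counts over the libraries. Just outside it were Zfp526, Zfp763 and Zfp11, with means of 49.5, 49.3 and 48.4 counts.

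A KRAB domain was found in the translated coding sequence of 139 members and not in 103, and 2 members, Zfp125 and Zfp939, are annotated without a protein. Of the KRAB members 21 were called lower and 7 higher, and their median log2 fold change was -0.24. Of the members with no KRAB found 5 were called lower and 4 higher, with a median of 0.00. The lower calls thus made up 15.1% of the KRAB members and 4.85% of the others. These counts include the 24 members that reached the mean of 50 counts in vehicle only, of which 18 are KRAB members with 7 called lower. Among members that reached it in both groups, an alternative added after seeing the data, 14 of 120 KRAB members (11.7%) and 5 of 98 others (5.1%) were called lower, with medians of -0.20 and 0.01. Outside distal chromosome 2, 15 of 133 KRAB members (11.3%) were called lower and 7 higher. Of all tested genes 8.3% were called lower, and of those with a mean of at least 50 counts 8.97%. The shares of 11.7% and 11.3% are nearer to these than 15.1% is. The next comparisons take all 139 KRAB members and the 103 others, not only those that reached the mean in both groups. With other scaling factors, a replicate block or any single library left out, their medians differed by -0.27 to -0.16 on the log2 scale. The counts were less stable: without iD1 replicate 1, 26 KRAB members and 15 of the others were called lower, and without any other library 10 to 12 KRAB members and 3 to 5 of the others. After removal of a GC and length trend from each library the medians differed by -0.14, and 19 KRAB members and 10 of the others were called lower. Library size only gave 33 and 16, and upper-quartile factors 24 and 12. The longest transcripts of KRAB members had a median GC content of 40.8%, against 49.8% in the members with no KRAB found, and the part of base composition in the difference was not tested beyond this removal.

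By number of fingers, the calls followed no single order. KRAB members had a median of 12 fingers and the others of 7, and Zfp142 had the most, 37. Members with 12 to 15 fingers had 10 of 56 called lower (17.9%), beside 8.3% of all tested genes called lower and 8.42% higher. For this class edgeR, DESeq2 and limma-voom each called 0 higher, with 0 at an unadjusted p under 0.05. Members with 2 to 6 fingers had 2 of 41 called lower and 3 called higher, and those with 7 to 11 fingers had 11 of 85 lower and 5 higher. Of the 47 members with 16 or more fingers 3 were called lower (6.38%) and 2 higher. By finger number the medians of log2 fold change were 0.13 with 0 to 1 finger, 0.00 with 2 to 6 fingers, -0.24 with 7 to 11, -0.25 with 12 to 15 and -0.17 with 16 or more.

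**Figure D1:**
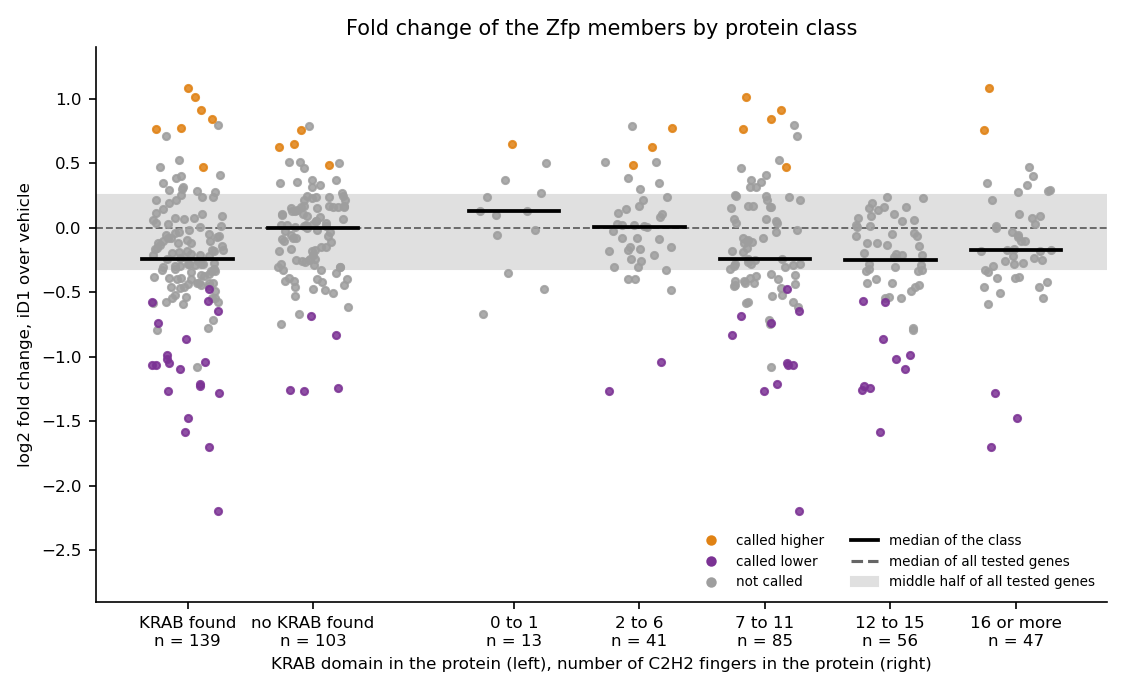
Log2 fold change, iD1 over vehicle, of each member (dot) by KRAB domain and by number of C2H2 fingers, with class medians (black lines) and, for all tested genes, the median (dashed) and the middle range between the quartiles (grey). The median lies at -0.24 for KRAB members and at 0.00 for members with no KRAB found.

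Library by library, the shift of the KRAB members was small and did not overlap. Their median deviation from each gene's own mean over the 6 libraries, on the log2 scale with 0.1 CPM added, was -0.04, -0.12 and -0.16 in iD1 replicates 1 to 3. In vehicle replicates 1 and 2 and the unnumbered replicate it was 0.18, 0.05 and 0.14. These medians take all 139 KRAB members, including 18 that reached the limit on the mean count in the vehicle libraries only. The level in vehicle made these 18 members, so their fall is a description. The 139 also include the 6 members of distal chromosome 2, picked out after their values were seen. Whether the libraries stay apart without these genes was not tested. For members with no KRAB found the deviations overlapped, at 0.03, -0.05 and -0.05 in iD1 and -0.02, 0.04 and 0.01 in vehicle libraries. Replicate 1 was the iD1 library nearest to the vehicle mean for 19 of the 26 members called lower and 7 of the 11 called higher.

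**Figure D2:**
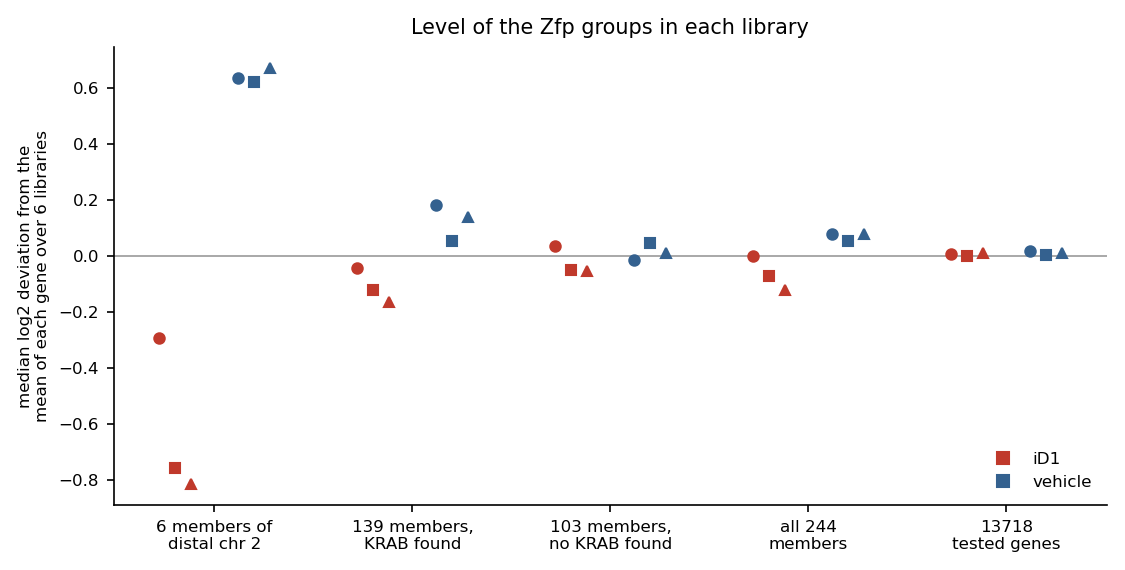
Median log2 deviation of each group of genes from the mean of each gene over the 6 libraries, in iD1 (red) and vehicle (blue) libraries; circles, squares and triangles are replicates 1, 2 and 3, the vehicle triangle being the unnumbered replicate. The KRAB members and the 6 members of distal chromosome 2 sit below 0 in each iD1 library and above 0 in each vehicle library. All 139 KRAB members are taken, including these 6 and the 18 that reached the limit on the mean count in vehicle only.

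Zfp324 had the most negative fold change among the members. Like Zfp873 and Zfp968, it reached the mean of 50 counts in the vehicle libraries and not in the iD1 libraries, so the level in vehicle made it a member and its fall is a description. It had 1.01, 1.94 and 0.511 CPM in the iD1 libraries, against 4.76, 5.47 and 6.22 CPM in the vehicle libraries. The lowest vehicle library was thus well above the highest iD1 library. The log2 fold change was -2.20 (SE 0.37), and the edgeR adjusted p was 0.0059. Zfp324 is a KRAB gene with 9 fingers and no transcript stretch of 50 bases shared with another gene.

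Zfp873, a KRAB gene of chromosome 10, had 1.57, 0.874 and 0.789 CPM in iD1 and 3.89, 3.59 and 3.06 CPM in vehicle livers. Zfp760, a KRAB gene of the large chromosome 17 cluster, had 2.42, 2.43 and 1.72 CPM in iD1 and 6.65, 5.33 and 6.40 CPM in vehicle livers. Zfp950, a KRAB gene with 17 fingers on chromosome 19, had 13.9, 7.93 and 7.66 CPM in iD1 and 25.8, 23.7 and 22.1 CPM in vehicle livers. In all 3 genes the groups were apart, as the rule that named them required. In Zfp873 and Zfp950 iD1 replicate 1 was the highest of its group. Their log2 fold changes were -1.70 (SE 0.29) for Zfp873, -1.47 (SE 0.20) for Zfp760 and -1.28 (SE 0.22) for Zfp950, with edgeR adjusted p of 0.00482, 0.0017 and 0.00662.

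Falls were not confined to KRAB genes. Zfp692, whose human counterpart was described as a repressor of gluconeogenic gene transcription, has 5 fingers and no KRAB found. It had 2.14, 1.84 and 2.41 CPM in iD1 livers, against 5.49, 4.55 and 5.30 CPM in vehicle livers. Its log2 fold change was -1.27 (SE 0.19, edgeR adjusted p 0.00279). Zfp467, a regulator known for promoting fat cell formation in mouse stromal cells, had 7.46, 5.14 and 8.17 CPM in iD1 livers, against 18.5, 14.4 and 16.5 CPM in vehicle livers. This was a log2 fold change of -1.26 (SE 0.18, edgeR adjusted p 0.00244). Both genes were lower in each iD1 library than in any vehicle library, which the rule that named them required.

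**Figure D3:**
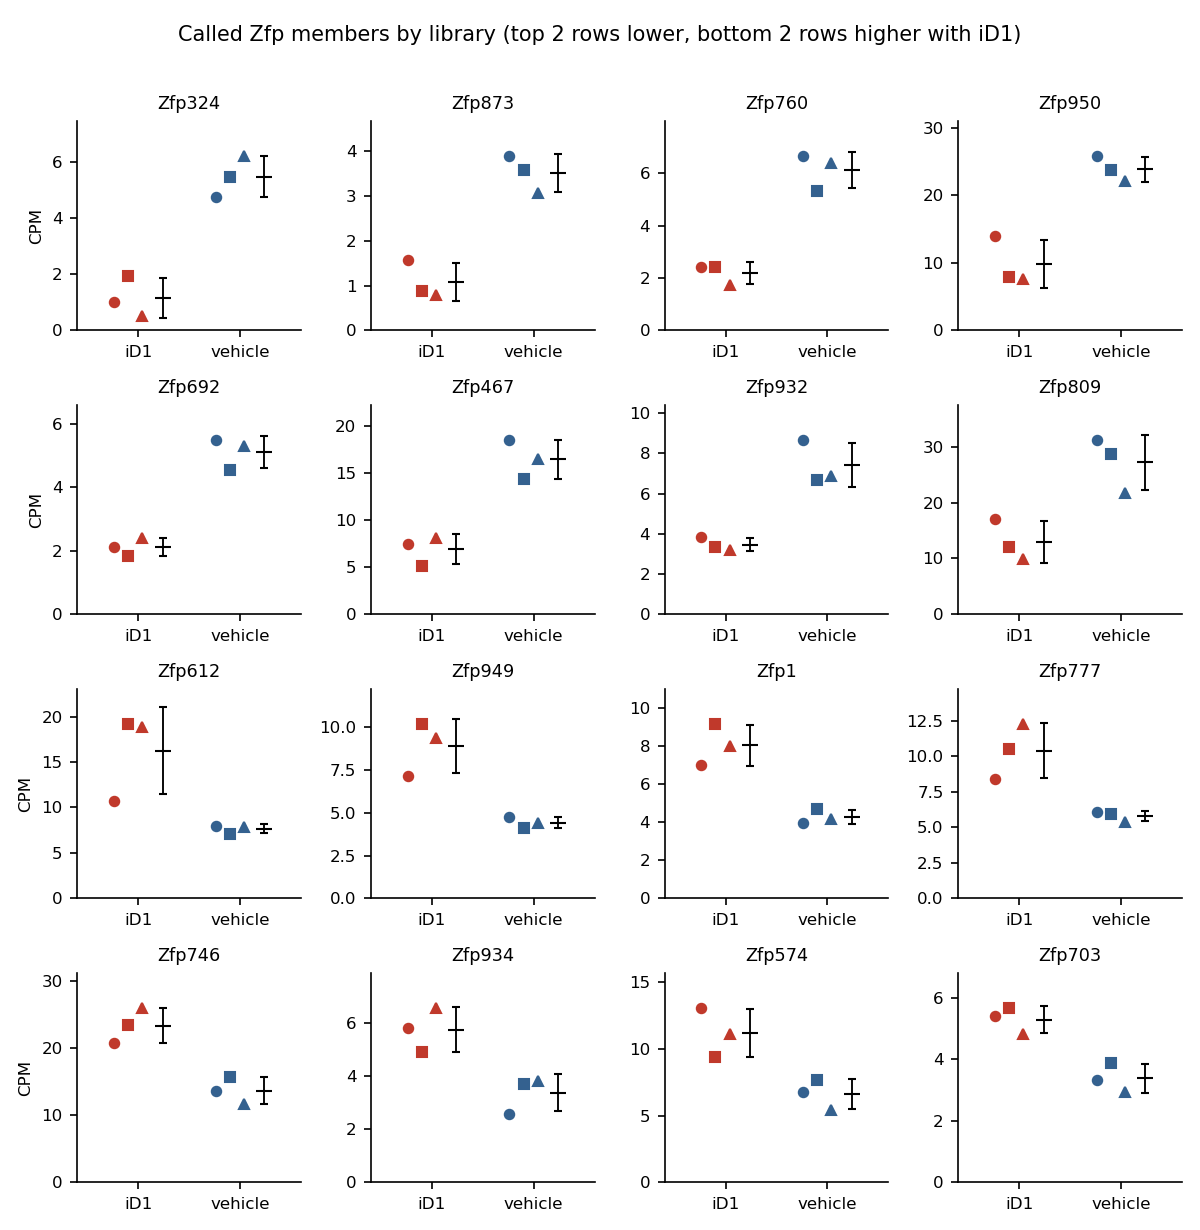
Level in CPM (vertical axis, from 0, own scale per gene) of 8 members called lower (top rows) and 8 called higher (bottom rows) in iD1 (red, left) and vehicle (blue, right) libraries; circles, squares and triangles are replicates 1, 2 and 3, the vehicle triangle being the unnumbered replicate, and bars are the mean and SD of 3 libraries. The iD1 and vehicle libraries do not overlap in any of the 16 genes, which the rule that named the 8 largest called falls and rises required. In Zfp612 the circle, iD1 replicate 1, lies nearest to vehicle.

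Of 9 members known as KRAB repressors with named targets, 2 were called lower and 0 higher by edgeR, by DESeq2 and by limma-voom, with 0 higher at an unadjusted p under 0.05. The list's median log2 fold change was -0.33. Zfp809, which recognises the proline primer binding site of murine retroviruses and silences them in mouse embryonic stem cells, had 17.1, 12.0 and 9.84 CPM in iD1 livers. In vehicle livers it had 31.1, 28.7 and 21.7 CPM. On the log2 scale the fold change was -1.06 (SE 0.21, edgeR adjusted p 0.0115), and the groups did not overlap. Zfp932, which is known from mouse embryonic stem cells for binding endogenous retroviruses together with its near-copy Gm15446, had 3.83, 3.33 and 3.20 CPM in iD1 livers. In vehicle livers it had 8.65, 6.68 and 6.89 CPM. Its log2 fold change was -1.10 (SE 0.17, edgeR adjusted p 0.00335). Of its transcript, 45.2% of the 50-base windows also occur in another gene, so its reads may be shared with Gm15446.

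The other repressors of that list did not pass the test. Zfp445, which keeps methylation at imprinted regions, had 99.6, 73.4 and 66.7 CPM in iD1 and 120, 88.3 and 93.2 CPM in vehicle livers, and these overlap. This was a log2 fold change of -0.33 (SE 0.18, edgeR adjusted p 0.234). Zfp568, which silences a placental Igf2 promoter in the mouse embryo, averaged 10.3 CPM in iD1 and 11 CPM in vehicle livers (log2 fold change -0.10, SE 0.15). Zfp57, which also guards imprinted regions, was tested but lies under the mean of 50 counts, at 0.205 CPM in iD1 and 0.536 CPM in vehicle livers on average (edgeR adjusted p 0.0687).

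The 6 members of distal chromosome 2 span chr2:175372436-178078476 in GENCODE M21, on GRCm38. Zfp971 had 2.70, 2.14 and 1.95 CPM in iD1 livers, against 7.12, 6.43 and 6.86 CPM in vehicle livers. On the log2 scale the fold change was -1.59 (SE 0.18), with the smallest p among the members and an edgeR adjusted p of 8.05e-04. Zfp931 had 3.22, 2.98 and 3.71 CPM in iD1 livers, against 7.98, 7.33 and 8.45 CPM in vehicle livers (log2 fold change -1.26, SE 0.16, edgeR adjusted p 0.00122). Both were lower in each iD1 library than in any vehicle library, which the rule for the largest falls required. Both kept their call without each of the 6 libraries in turn, as did Zfp965.

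Zfp970 was the member with the highest level per length, 31.1 CPM per kb of its longest transcript. It had 41.9, 25.7 and 20.1 CPM in iD1 livers, against 55.7, 78.4 and 70.9 CPM in vehicle livers. Its log2 fold change was -1.22 (SE 0.27, edgeR adjusted p 0.0224), and iD1 replicate 1 was the nearest to vehicle. Zfp966 had 7.54, 2.91 and 4.64 CPM in iD1 and 11.5, 11.7 and 11.5 CPM in vehicle livers, Zfp965 had 2.94, 3.20 and 4.88 CPM in iD1 and 7.65, 7.11 and 7.84 CPM in vehicle livers, and Zfp968 had 1.65, 1.23 and 0.789 CPM in iD1 and 2.96, 2.63 and 2.08 CPM in vehicle livers. The groups were apart in these 3 as well, with log2 fold changes of -1.21, -1.04 and -1.05. Zfp970 stayed called in 3, Zfp966 in 2 and Zfp968 in 1 of the 6 fits that leave out a library.

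The sequences of this block limit what a single gene's value means. All 50-base windows of the longest Zfp968 and Zfp965 transcripts also occur in another gene, and so do 89.5% of those of Zfp966, 52.2% of Zfp970, 40.0% of Zfp971 and 16.7% of Zfp931. A sum does not depend on how reads are shared out among the genes summed. The sum of the 6 members can still depend on sharing with the 60 other genes of the region. The 6 members together had 59.97, 38.2 and 36.1 CPM in iD1 livers, against 93.0, 114 and 108 CPM in vehicle livers. All 66 genes of the table in this region together had 165, 125 and 119 CPM in iD1 livers, against 262, 291 and 294 CPM in vehicle livers, a log2 ratio of the means of -1.05.

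Other genes of the region were tested as well. Of 34 tested genes in the region 17 were called lower and 0 higher by edgeR, with 0 higher at its unadjusted p under 0.05. DESeq2 and limma-voom also called 0 higher. Of all tested genes 8.3% were called lower. The 17 include the 6 members, which were picked out after their values were seen and set the bounds of the region. Because near-copies share sequence, the 34 genes are not all separate measurements. Of the 28 that are no members, 11 were called lower and 17 were not called. A KRAB domain was found in 29 of the tested genes, and each of the 17 called genes was among these. Without the block, 20 of 238 members were called lower, which is 8.4%, and 11 higher. Without any 1 library, between 3 and 6 of the 6 members stayed called lower.

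**Figure D4:**
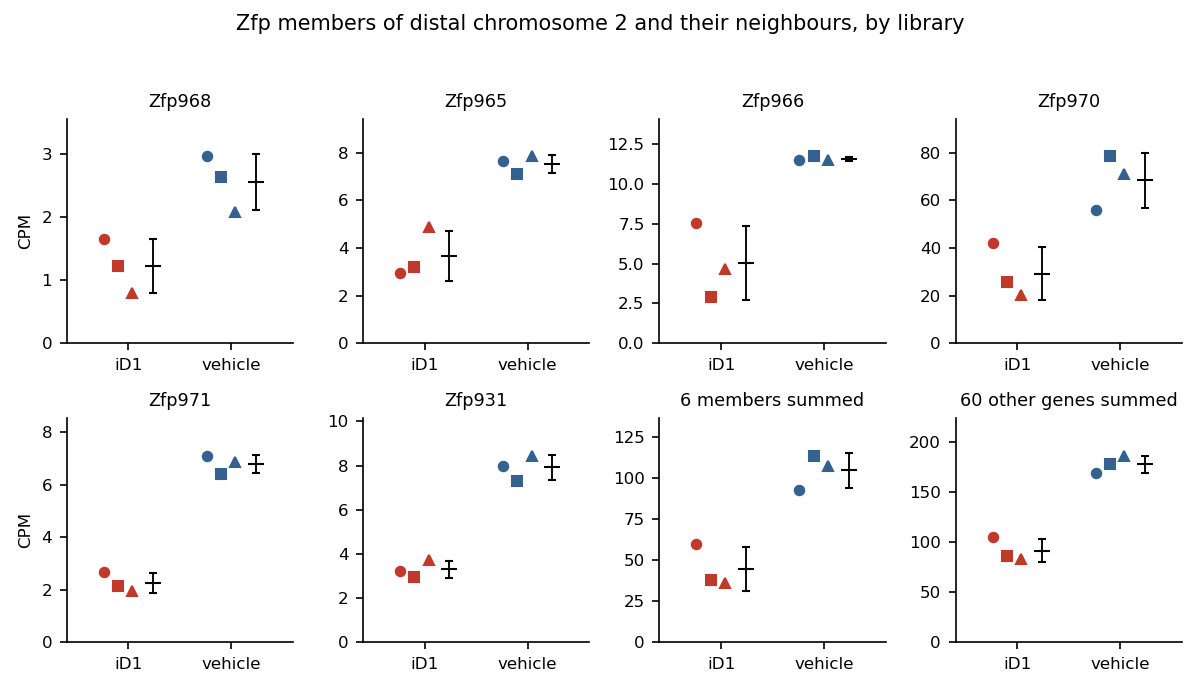
Level in CPM (vertical axis, from 0, own scale per panel) of the 6 members of distal chromosome 2, of their sum and of the sum of the 60 other genes between the outer members, in iD1 (red, left) and vehicle (blue, right) libraries; circles, squares and triangles are replicates 1, 2 and 3, the vehicle triangle being the unnumbered replicate, and bars are the mean and SD of 3 libraries. In each panel all iD1 libraries lie below all vehicle libraries.

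Elsewhere the members were spread over chromosomes 1 to 19 and X, and 154 lay in 36 groups whose neighbours are within 500000 bases of each other. The largest group, 19 members on chromosome 17 from Zfp160 to Zfp213, had 4 called lower, Zfp983, Zfp760, Zfp820 and Zfp946, and its log2 fold changes ran from -1.47 to 0.29. A chromosome 7 group of 6 members had 3 called lower, Zfp606, Zfp329 and Zfp324, while its neighbour Zfp110 had 26.3, 34.0 and 33.3 CPM in iD1 and 22.5, 25.1 and 28.5 CPM in vehicle livers, which overlap, and was not called (edgeR adjusted p 0.181). In a chromosome 6 group of 7 members, Zfp777 and Zfp746 were called higher and Zfp467 lower.

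In a pair of chromosome 7 groups no member was called. In the 10 members from Zfp84 to Zfp146 each log2 fold change was negative, from -0.46 to -0.10. In the 9 members from Zfp553 to Zfp646, 8 were positive, up to 0.79 for Zfp689, and 1 was negative, at -0.30 for Zfp768. Zfp689 is the member that reached the mean of 50 counts in iD1 only. In the stretch with Zfp84 edgeR, DESeq2 and limma-voom called 0 members, and 3 were lower at an unadjusted p under 0.05. In the stretch with Zfp689 the 3 tools also called 0 members, and 3 were higher and 1 lower at an unadjusted p under 0.05. The 11 KRAB members on chromosome 13 from Zfp708 to Zfp273 likewise had 0 calls with each tool, 2 lower at an unadjusted p under 0.05 and a median of -0.18.

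**Figure D5:**
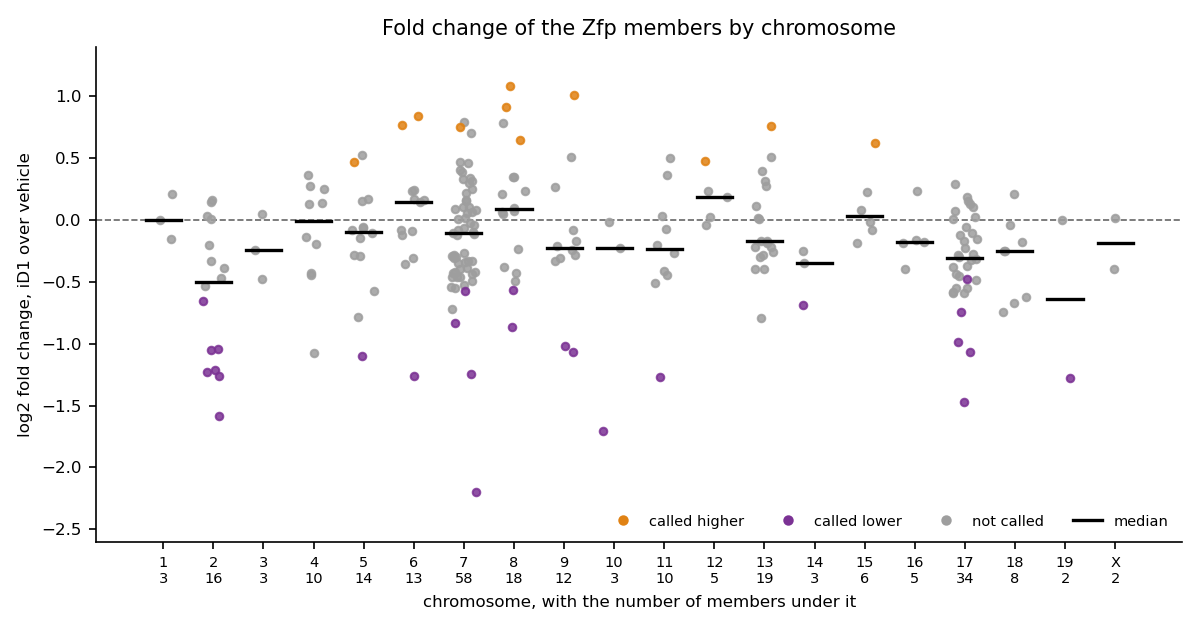
Log2 fold change, iD1 over vehicle, of each member (dot) by chromosome, with the median of each chromosome (black line) and the number of members under each name. Chromosome 2 holds 7 of the 26 members called lower, and chromosomes 6 and 8 hold 5 of the 11 called higher.

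Zfp612 rose the most among the members. It had 10.7, 19.2 and 18.9 CPM in iD1 livers, against 7.98, 7.13 and 7.90 CPM in vehicle livers. This was a log2 fold change of 1.08 (SE 0.21, edgeR adjusted p 0.0101), and iD1 replicate 1 lay nearer to the vehicle libraries than to the other iD1 libraries. Zfp612 is a KRAB gene of chromosome 8 with 16 fingers.

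Zfp949, a KRAB gene of chromosome 9, had 7.13, 10.2 and 9.38 CPM in iD1 and 4.76, 4.12 and 4.38 CPM in vehicle livers. Zfp1, a KRAB gene of chromosome 8, had 6.97, 9.12 and 7.99 CPM in iD1 and 3.96, 4.68 and 4.14 CPM in vehicle livers. Zfp777, a KRAB gene of chromosome 6, had 8.42, 10.5 and 12.3 CPM in iD1 and 6.05, 5.95 and 5.36 CPM in vehicle livers. Each iD1 library was above every vehicle library in these 3 genes, as the rule that named them required. Their log2 fold changes were 1.01 (SE 0.17), 0.91 (SE 0.16) and 0.84 (SE 0.16), with edgeR adjusted p of 0.00491, 0.00583 and 0.00896. Together with Zfp612 and Zfp746 they are the 5 of 11 higher members that stayed called without each of the 6 libraries in turn.

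The smaller rises lost their calls in several of the fits that leave out a library. Zfp934, a chromosome 13 KRAB gene that shares 40.1% of its 50-base windows with other genes, averaged 5.75 ± 0.832 CPM in iD1 and 3.37 ± 0.70 CPM in vehicle livers (SD, n = 3 each). Zfp574, with 18 fingers and no KRAB found, averaged 11.2 ± 1.82 CPM in iD1 and 6.62 ± 1.13 CPM in vehicle livers. Zfp655 averaged 27.0 ± 2.22 CPM in iD1 and 19.5 ± 2.46 CPM in vehicle livers. The groups did not overlap, which the rule for the largest rises required of Zfp934 and Zfp574. The log2 fold changes were 0.76, 0.75 and 0.47, with edgeR adjusted p of 0.0329, 0.0191 and 0.037. Zfp934 stayed called in 1, Zfp574 in 3 and Zfp655 in 1 of the 6 fits that leave out a library.

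Among 23 members with named roles as DNA-binding regulators, 3 were called higher and 2 lower, and their median log2 fold change was 0.00. Zfp746, the counterpart of human PARIS, a repressor of the gene for the coactivator PGC-1alpha and a substrate of the ubiquitin ligase parkin, had 20.7, 23.4 and 25.9 CPM in iD1 livers. In vehicle livers it had 13.6, 15.7 and 11.7 CPM, so that the groups were apart, as the rule for the largest rises required. On the log2 scale the fold change was 0.77 (SE 0.14, edgeR adjusted p 0.00719). Zfp410, an activator of the gene for the chromatin remodeller CHD4, had 17.0, 17.6 and 18.1 CPM in iD1 and 13.2, 11.8 and 12.7 CPM in vehicle livers. Its log2 fold change was 0.48 (SE 0.11, edgeR adjusted p 0.018), and it stayed called in 3 of the 6 fits that leave out a library. Chd4 itself had 62.6, 75.1 and 77.6 CPM in iD1 and 58.7, 58.7 and 51.3 CPM in vehicle livers, where edgeR gave an adjusted p of 0.0834.

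Zfp703, a transcriptional corepressor in which no finger matched the pattern, had 5.40, 5.66 and 4.83 CPM in iD1 and 3.33, 3.88 and 2.94 CPM in vehicle livers. This was a log2 fold change of 0.65 (SE 0.18, edgeR adjusted p 0.0343), and it lost its call in each of the 6 fits that leave out a library. Zfp219, which acts with SOX9 in mouse cartilage cells, had 11.5, 9.64 and 7.85 CPM in iD1 and 16.7, 14.2 and 15.9 CPM in vehicle livers. On the log2 scale the fold change was -0.69 (SE 0.15, edgeR adjusted p 0.0161). Zfp219 stayed called in 3 of the 6 fits that leave out a library. Of its 4519 exon bases, 266 are shared with Tmem253 on the other strand. Of the 3392 exon bases of Zfp703, 459 are shared with Gm45371 on the other strand. Whether the counting used strand is not stated, so reads from these shared bases cannot be told apart.

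Members with roles in RNA handling, ribosomes or cell division were mostly level. Of 11 such members 1 was called higher and 0 lower by edgeR, DESeq2 and limma-voom alike, with 0 lower at an unadjusted p under 0.05, and their median log2 fold change was 0.01. Zfp622, a factor of large ribosomal subunit maturation, had 16.9, 23.5 and 23.1 CPM in iD1 livers, against 14.2, 13.5 and 13.6 CPM in vehicle livers. Its log2 fold change was 0.62 (SE 0.14, edgeR adjusted p 0.0177), and the groups did not overlap. Zfp622 stayed called in 2 of the 6 fits that leave out a library.

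The members with the most counts were not called, apart from Zfp970. Zfp91, a ubiquitin ligase, averaged 89.4 ± 3.27 CPM in iD1 and 89.2 ± 6.64 CPM in vehicle livers (SD, n = 3 each). Zfp106, an RNA-binding protein, averaged 67.1 ± 1.0 CPM in iD1 and 66.5 ± 8.66 CPM in vehicle livers. Zfp706 averaged 65.3 ± 3.78 CPM in iD1 and 66.1 ± 14.3 CPM in vehicle livers. These 3 had log2 fold changes of 0.00 (SE 0.11), 0.01 (SE 0.12) and -0.02 (SE 0.15), and the signs of Zfp91 and Zfp106 turn with the scaling. Zfp207, which helps chromosomes attach to the spindle, averaged 52.9 ± 5.51 CPM in iD1 and 63.5 ± 5.76 CPM in vehicle livers, with an edgeR adjusted p of 0.178. Per kb of longest transcript Zfp207 stood at 17.8 CPM, Zfp91 at 16.1, Zfp706 at 14.9, Zfp445 at 14.6 and Zfp106 at 7.35, beside a median of 1.57 over the members.

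Among the members without a call, Zfp982, a chromosome 4 gene, differed most. It had 7.74, 2.62 and 3.25 CPM in iD1 and 15.6, 6.39 and 6.77 CPM in vehicle livers, with replicate 1 the highest in both groups and the groups overlapping. This was a log2 fold change of -1.08 (SE 0.55, edgeR adjusted p 0.247). Zfp273 averaged 1.35 ± 0.345 CPM in iD1 and 2.36 ± 0.0654 CPM in vehicle livers, Zfp689 averaged 2.47 ± 0.394 CPM in iD1 and 1.42 ± 0.315 CPM in vehicle livers, and Zfp821 averaged 2.66 ± 0.802 CPM in iD1 and 1.55 ± 0.165 CPM in vehicle livers. The groups did not overlap in these 3 low genes, and their edgeR adjusted p ran from 0.0578 to 0.0743. Zfp273 reached the mean of 50 counts in vehicle only and Zfp689 in iD1 only. The group where each is high thus made it a member, and its difference is a description.

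The promoters of 203 members were matched by symbol in the RefSeq table. The motifs searched on both strands were the CCAAT box (CCAAT), the GC box (GGGCGG), the cAMP response element (TGACGTCA), the E-box (CACGTG), the ETS site (CCGGAAGT) and the NRF1 core (GCATGCGC). None of these motifs contains another. A CCAAT box was present in 20 of the 25 members called lower with a promoter, which is 80%, and in 0 of the 6 called higher. The 20 include the 6 members of distal chromosome 2, whose promoters are near-copies. The box was present in 55.2% of all members, in 60.5% of KRAB members, in 46.2% of those with no KRAB found and in 43.0% of tested genes. It was held by 41.1% of all 27025 promoters listed.

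The 6 distal chromosome 2 promoters each held 2 CCAAT boxes, 1 on either strand, as in the sequence of Zfp971 printed above. The downstream box began between -108 in Zfp931 and -38 in Zfp968, counted from the annotated start at 0. Pairwise identity of these promoters ran from 58.6% between Zfp968 and Zfp931 to 97% between Zfp965 and Zfp971, so they are not 6 independent cases. A promoter with 2 or more CCAAT boxes was found for 11 of the 25 members called lower, 48 of the 203 members (23.6%) and 16.4% of tested genes. The 11 include the 6 near-copies of distal chromosome 2. The GC box was present in 24% of members called lower, 49.8% of members, 65.4% of tested genes and 38.2% of all promoters listed. In members called lower, members and tested genes, the E-box was present in 8%, 8.37% and 11.3%, the ETS site in 4%, 12.3% and 8.67%, the NRF1 core in 4%, 5.91% and 5.75%, and the cAMP response element in 0%, 4.43% and 3.38%. These are counts of letters in 300 bases, and no test was made on them.

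KRAB genes with other names gave the nearest comparison, since the name alone keeps them out of the members. Of 58 such genes with a mean of at least 50 counts, 24 were called lower (41.4%) and 1 higher (1.72%), with a median log2 fold change of -0.51. Among all tested genes with that mean, 8.97% were called lower and 9.73% higher. How many of the 58 reached the mean in the vehicle libraries only was not counted. Reads of those in the distal chromosome 2 region may be shared with near-copies there. Outside the distal chromosome 2 region 14 of 42 were called lower (33.3%), with a median of -0.39. Of these 58 genes 35 are predicted or clone-named. The related BTB-domain family (Zbtb) had 5 of 32 called lower (15.6%, beside 8.3% of all tested genes) and 2 higher (6.25%, beside 8.42%), with a median of -0.05. The SCAN-domain families (Zscan and Zkscan) had 1 of 16 called lower (6.25%) and 4 higher (25%), with a median of 0.18. The differences between these families were not tested.

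For the proteins that KRAB works through, the calls were near or under the background. Of 34 tested genes of the KRAB repression machinery 3 were called lower (8.82%, beside 8.3% of all tested genes) and 1 higher (2.94%, beside 8.42%), with a median log2 fold change of -0.08. Setdb1, the histone methyltransferase, averaged 13.9 ± 2.37 CPM in iD1 and 20.1 ± 1.2 CPM in vehicle livers (SD, n = 3 each; log2 fold change -0.53, SE 0.14, edgeR adjusted p 0.0322). Cbx5, which encodes HP1 alpha, averaged 18.6 ± 3.32 CPM in iD1 and 27.3 ± 0.847 CPM in vehicle livers (SD, n = 3 each; edgeR adjusted p 0.0254). Dnmt3b, a DNA methyltransferase, averaged 1.24 ± 0.20 CPM in iD1 and 2.64 ± 0.508 CPM in vehicle livers (edgeR adjusted p 0.0191). Gatad2b, a subunit of the NuRD complex, averaged 19.7 ± 1.43 CPM in iD1 and 13.3 ± 2.33 CPM in vehicle livers (edgeR adjusted p 0.027). Of the 6 fits that leave out a library, Setdb1 and Cbx5 stayed called in 1 each, Dnmt3b in 3 and Gatad2b in 2. Trim28 itself had 30.3, 32.7 and 36.6 CPM in iD1 and 28.5, 31.1 and 31.0 CPM in vehicle livers, which overlap (log2 fold change 0.14, SE 0.12, edgeR adjusted p 0.46).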

How the data were processed

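The authors deposited 1 table of estimated counts by gene, unscaled, under versioned Ensembl identifiers. Libraries came from a stranded mRNA kit, per the labels' protocols; for aligner, quantifier, build and annotation the sources used here give nothing. In each library 22.6% to 27.7% of values were not whole, and all were rounded first. Symbols were found for 34582 identifiers, and 93.4% of versioned identifiers matched GENCODE M21 (GRCm38), which gave positions and transcripts.

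Genes passing filterByExpr (minimum count 10, minimum total 15) were scaled by TMM and tested with edgeR 4.0.16 (R 4.3.3; quasi-likelihood, robust, both directions). P-values were adjusted over 13718 genes by the Benjamini-Hochberg method. CPM were computed on library sizes scaled by TMM. Each SE is the log2 fold change over the root of F. With groups of 3 an exact permutation test reaches 0.1 at best. Alternatives were DESeq2 1.42.0, limma-voom (limma 3.58.1), other scalings and filters, a replicate block and leave-one-out fits. The test was checked on simulated data.

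KRAB domains were found in translated GENCODE coding sequences with a profile (MAFFT 7.526, HMMER 3.4, E-value up to 1e-05) built from 134 matches of a strict pattern, and fingers by pattern. The members and lists were chosen with earlier results of these data known. Named by rule were the 8 largest called falls and rises without overlap, the 6 smallest p, the 6 highest CPM, the 4 largest uncalled changes and up to 4 called genes of a list. The other called members, the distal chromosome 2 block and further genes were named after their values were seen.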

Additional observations from a re-analysis of the deposited data

How the results depend on the processing

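With DESeq2 size factors, DESeq2, limma-voom, non-robust shrinkage, upper-quartile factors or another filter on low counts, members called higher numbered 9 to 11 and members called lower 26 to 36. Library size only gave 5 higher and 49 lower, and 597 of all genes higher and 1883 lower. At a threshold of 0.01 there were 4 higher and 12 lower members, and 458 higher and 367 lower genes. Leaving out each library gave 5 to 10 members higher and 14 to 41 lower, and 592 to 1201 genes higher and 578 to 1373 lower; without the unnumbered vehicle library it was 5 and 14 members, and 592 and 620 genes, and without iD1 replicate 3 it was 653 and 578 genes. Stable through all 6 were 12 of the 26 lower and 5 of the 11 higher members. The members' median log2 fold change was -0.24 with upper-quartile factors, -0.36 with library size only and -0.11 with the GC and length trend removed. It ran from -0.19 to -0.10 without a library, and was -0.10 at a mean of at least 100 counts, -0.10 at a mean of 50 in each group and -0.11 for members with under 10% shared windows, an alternative added after seeing the data. The all-gene median was -0.07 with upper-quartile factors.

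The groups share replicate numbers 1 and 2. Deviations of same-numbered libraries correlated at 0.17 for number 1 and -0.13 for number 2, so the numbers were not taken as pairs. A replicate block on these 4 libraries called 0 members higher (13 at an unadjusted p under 0.05) and 13 lower, and 407 genes higher and 361 lower. Without the block the same 4 libraries, an alternative added after seeing the data, gave 0 higher (13 unadjusted) and 10 lower members, and 281 higher and 240 lower genes. The replicate block with the GC and length trend removed gave 0 higher (16 unadjusted) and 3 lower members, 259 higher and 198 lower genes, and a median of -0.11. Fewer samples enter these fits.

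Signs turned in 5 named genes without a call. Zfp91 was at -0.071 with upper-quartile factors, -0.20 with library size only, -0.014 without a filter, -0.0084 at a mean of 1 CPM, -0.021 with the GC and length trend removed and -0.034 to 0.061 without a library (0.032 without iD1 replicate 1). Zfp106 was at -0.061 with upper-quartile factors, -0.19 with library size only, -0.0053 without a filter and -0.091 to 0.079 without a library (0.047 without vehicle replicate 2). Zfp706 was at 0.010 with the GC and length trend removed, 0.00096 with limma-voom and -0.14 to 0.17 without a library. Zfp11 was at -0.10 with library size only and -0.039 to 0.27 without a library, and Zfp526 at -0.47 to 0.058 without a library. The causes were not tested. Low counts limit members such as Zfp324 and Zfp968, and shared sequence limits the distal chromosome 2 genes.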
